A study of Rattus norvegicus with 12 samples.

Results

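Transcripts of 9 annexins (Anxa1, Anxa2, Anxa3, Anxa4, Anxa5, Anxa6, Anxa7, Anxa8 and Anxa11) and of dysferlin (Dysf) were followed in injured rat pelvic floor muscle, 10 genes among the 30206 listed. The genes were chosen by name, as the family of Anxa8 together with the ferlin that works beside it, because Anxa8 was lower with lactation than without it at 3 weeks. Each of the 10 symbols was found once and all 10 genes had enough counts to be tested, among 14599 genes tested in all. The question was whether the other annexins and dysferlin shared the 3-week difference of Anxa8.

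The libraries held messenger RNA of the pubocaudalis, a striated muscle of the pelvic floor, from female Sprague-Dawley rats that were 3 months old. All rats had been pregnant and all had undergone simulated birth injury (SBI), a distention of the vagina with a balloon on gestation day 20, so no uninjured muscle was sequenced. In the groups named 1wk SBI and 3wk SBI the pups were taken away after birth, and in 1wk SBI + Lac and 3wk SBI + Lac the dams nursed until the muscle was taken 1 week or 3 weeks after injury. Each group had 3 libraries and each library pooled the RNA of 2 rats, so n counts pools and p-values measure only the spread between pools.

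Annexins are proteins that bind acidic phospholipids of a membrane when calcium enters the cell, and several of them gather at a wound in the plasma membrane within moments of its opening. Dysferlin is a transmembrane protein with several calcium-binding C2 domains that is abundant in muscle fibers and brings vesicles to the wound. Loss of dysferlin causes a limb-girdle muscular dystrophy, and several annexins have been linked to repair of the fiber membrane.

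Promoter sequence was matched for 9 of the 10 genes, all except Anxa6, in the RefSeq annotation of the GRCr8 rat assembly. The 250 bases before the annotated start are printed 5′ to 3′ for Anxa8, Anxa4 and Anxa2. Anxa8 was the gene whose level varied most. For Anxa4 and Anxa2, every 3-week library lay below every 1-week library of the same lactation state, with and without lactation. The same held for Dysf, whose window is not printed. Capitals mark the GC box GGGCGG on either strand, the motif that Sp1-type factors bind. The Anxa8 window (chr16:9403137-9403386, plus strand) holds no GC box, the Anxa2 window (chr8:78986002-78986251, plus strand) holds 2 and the Anxa4 window (chr4:120798514-120798763, minus strand) holds 1.
Anxa8: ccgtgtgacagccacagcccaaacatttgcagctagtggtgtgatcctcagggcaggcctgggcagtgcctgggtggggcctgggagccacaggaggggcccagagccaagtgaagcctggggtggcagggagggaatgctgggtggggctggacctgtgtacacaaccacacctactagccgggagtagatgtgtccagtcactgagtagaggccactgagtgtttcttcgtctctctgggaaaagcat
Anxa2: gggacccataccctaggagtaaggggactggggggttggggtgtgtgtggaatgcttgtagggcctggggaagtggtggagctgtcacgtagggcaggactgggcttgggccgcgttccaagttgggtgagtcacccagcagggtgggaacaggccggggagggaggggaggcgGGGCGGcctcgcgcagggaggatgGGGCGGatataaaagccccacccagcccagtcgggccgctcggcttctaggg
Anxa4: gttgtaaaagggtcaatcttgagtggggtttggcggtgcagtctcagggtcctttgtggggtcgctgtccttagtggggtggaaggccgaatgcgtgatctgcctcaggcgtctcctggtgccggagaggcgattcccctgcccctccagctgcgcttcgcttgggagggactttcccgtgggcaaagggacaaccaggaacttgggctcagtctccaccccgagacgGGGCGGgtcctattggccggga
The GC box was present in 6 of the 9 windows (Anxa2, Anxa3, Anxa4, Anxa5, Anxa11 and Dysf), against 30.5% of 33469 rat promoters of the same length. Those 6 windows held 62.4% to 69.2% G and C, beside a median of 51.2% over all promoters. The share of 30.5% takes no account of this. An E-box, CANNTG, was present in 6 of the 9 and in 65.5% of all promoters, and Anxa8 had 2 of them. The TATA box TATAAA was present in 2 of the 9, Anxa1 and Anxa2, against 12.9% of all promoters. The AP-1 motif TGANTCA was present in 1 of the 9, 123 bases before the start of Anxa2, against 6.34% of all promoters. These matches were sought on both strands and describe the letters only.

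Total counts per library ran from 10082734 to 75634391, with the shallowest and the deepest library both in 3wk SBI. Levels are given as normalized CPM, counts brought to 1 common library size, which can be compared between libraries for 1 gene but not between genes of different length. A gene was past both cutoffs when edgeR's quasi-likelihood test gave an adjusted p under 0.05 together with a log2 fold change beyond 1 in either direction, and calls by the adjusted p alone are given as a second rule. In 3wk SBI, replicate 3 stood apart from replicates 1 and 2 in its connective tissue and macrophage transcripts. The 3-week values were deposited with decimals and the 1-week values as whole counts, so time cannot be told apart from a difference in how the counts were made in any comparison of 3 weeks with 1 week. In a bulk sample, fewer cells of a type and less RNA per cell cannot be told apart.

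Anxa8 (ENSRNOG00000060949), an annexin best known from epithelia and leukemic promyelocytes, stood at low counts in 3 of the 4 groups and higher in 3wk SBI. At 1 week it had 0.336, 0.371 and 0.351 normalized CPM in the non-lactating libraries, from 21, 22 and 15 counts. In 1wk SBI + Lac it had 0.459, 0.339 and 0.430 normalized CPM, from 14, 10 and 18 counts. The lactating and non-lactating libraries of 1 week thus overlapped at a level of 10 to 22 counts per library. In 3wk SBI the values were 11.2, 4.95 and 4.84 normalized CPM. In 3wk SBI + Lac they were 1.11, 0.781 and 0.440 normalized CPM, the lowest from 4 counts with a 95% exact Poisson interval of 0.120 to 1.13 that covers counting error only. Every 3wk SBI library lay above every library of the other 3 groups, and replicate 1 of 3wk SBI was the highest of all 12.

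**Figure D1:**
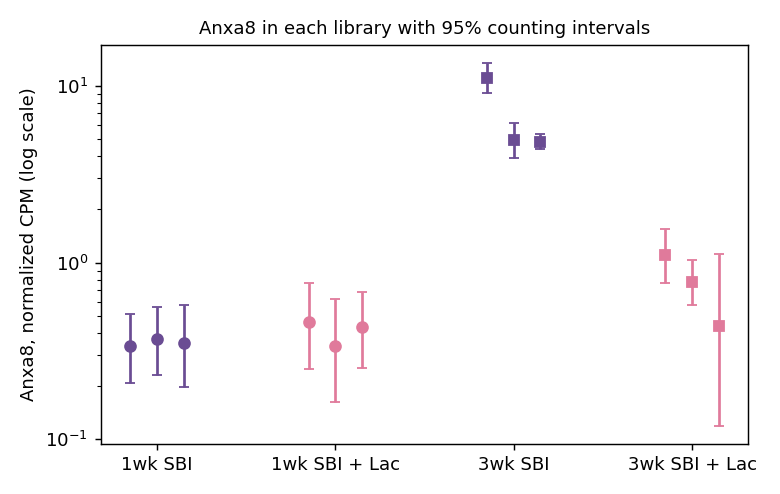
Anxa8 in each of the 12 libraries, in normalized CPM on a log axis, with 95% counting intervals as bars, circles for 1 week, squares for 3 weeks, purple for non-lactating and pink for lactating rats. The 3 libraries of 3wk SBI, at 4.84 to 11.2, sit above the other 9, which range from 0.336 to 1.11.

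The mean of Anxa8 was 6.98 ± 3.62 normalized CPM (SD, n = 3) in the 3wk SBI pools and 0.776 ± 0.334 (SD, n = 3) in 3wk SBI + Lac. This is the contrast by which the gene was chosen, and the fitted log2 fold change of -3.04 (standard error, SE, of 0.39), an 8.22-fold lower level in lactating rats, is a description. The group means were ordered 3wk SBI, 3wk SBI + Lac, 1wk SBI + Lac and 1wk SBI, and the step from the first to the second was the one without overlap between libraries. Non-lactating rats had 0.353 ± 0.0174 (SD, n = 3) at 1 week, so that Anxa8 was 19.2-fold higher at 3 weeks than at 1 week (log2 fold change 4.26, SE 0.40), also a description because it shares the 3wk SBI libraries. In lactating rats, with 0.409 ± 0.0626 (SD, n = 3) at 1 week, the 3-week libraries were higher by a log2 fold change of 1.01 (SE 0.42) and overlapped those of 1 week. The 3-week difference of Anxa8 therefore lay between a non-lactating level far above that of 1 week and a lactating level that overlapped it. Leaving out 3wk SBI replicate 1 gave a log2 fold change of -2.57 for lactation at 3 weeks, and leaving out 3wk SBI + Lac replicate 1 gave -3.33.

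At 3 weeks the other 9 genes showed no difference of that size. Of the 10 genes, 1 was past both cutoffs, Anxa8, where 0.534% of all genes tested were past them in the lower direction. The log2 fold changes of the other 9, lactating over non-lactating, ran from -0.38 for Anxa2 to 0.11 for Anxa3, with a median of -0.05 against -0.02 over all genes tested. Values below 0 were found for 8 of the 10 genes, Anxa8 included, beside 52.3% of all genes tested. The libraries did not overlap, with every lactating library the lower, for Anxa5, Anxa6, Anxa8 and Dysf, 4 of the 10, where 10.4% of all genes tested did so. The rule used this contrast, and nothing further is read from these counts.

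**Figure D2:**
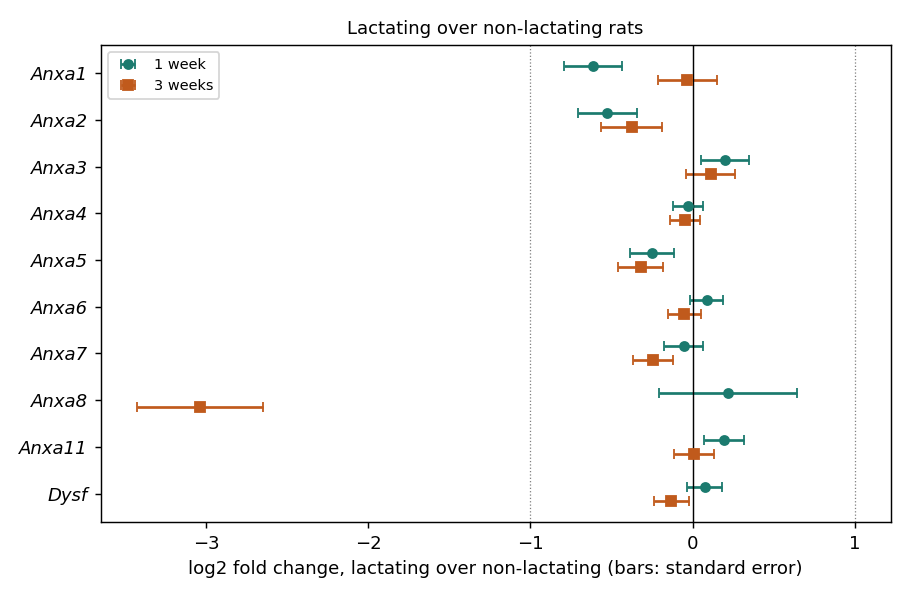
Log2 fold changes of the 10 genes, lactating over non-lactating, at 1 week (circles) and 3 weeks (squares), with standard errors as bars and dotted lines at the fold cutoff of 1 in either direction. Anxa8 at 3 weeks lies at -3.04 and every other point lies between -0.61 and 0.22.

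Anxa1, Anxa2 and Anxa5 are made by many cell types of a healing tissue. Anxa1 (ENSRNOG00000017469) encodes a glucocorticoid-induced protein that acts on formyl peptide receptors to limit the entry of neutrophils. It had 71.8, 56.9 and 54.1 normalized CPM in the 1wk SBI pools and 38.1, 36.4 and 44.9 in 1wk SBI + Lac. At 3 weeks it had 36.7, 41.6 and 62.6 without lactation and 45.1, 53.0 and 40.6 with lactation. Every lactating library of 1 week was below every non-lactating one, whereas the libraries of 3 weeks overlapped. The 1-week log2 fold change was -0.61 (SE 0.18) and missed the threshold (edgeR adjusted p = 0.0996), and that at 3 weeks was -0.03 (SE 0.18).

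Anxa2 (ENSRNOG00000010362) encodes a protein that pairs with S100A10 at the cell membrane and binds plasminogen and its activator. It had 107, 84.1 and 81.2 normalized CPM in the 1wk SBI pools and 61.3, 55.4 and 72.4 in 1wk SBI + Lac, again without overlap. It had 49.8, 43.2 and 74.4 in the 3wk SBI pools and 43.0, 48.9 and 37.4 in 3wk SBI + Lac, with overlap. The log2 fold change for lactation was -0.52 at 1 week (SE 0.18, edgeR adjusted p = 0.145) and -0.38 at 3 weeks (SE 0.19). The value at 3 weeks was -0.53 without 3wk SBI replicate 2 and -0.10 without 3wk SBI replicate 3.

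Anxa5 (ENSRNOG00000014453), whose protein forms a lattice on exposed phosphatidylserine, had 85.5, 69.0 and 68.1 normalized CPM in the 1wk SBI pools and 59.6, 56.4 and 70.9 in 1wk SBI + Lac. The 3-week values were 53.5, 50.2 and 71.9 without lactation and 46.6, 47.0 and 47.9 with lactation. The 3-week libraries did not overlap, and the lactating ones had a mean of 47.2 ± 0.673 beside 58.5 ± 11.7 in 3wk SBI (SD, n = 3 each). Its log2 fold change was -0.25 at 1 week (SE 0.14, edgeR adjusted p = 0.330) and -0.32 at 3 weeks (SE 0.14), the latter -0.14 without 3wk SBI replicate 3.

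**Figure D3:**
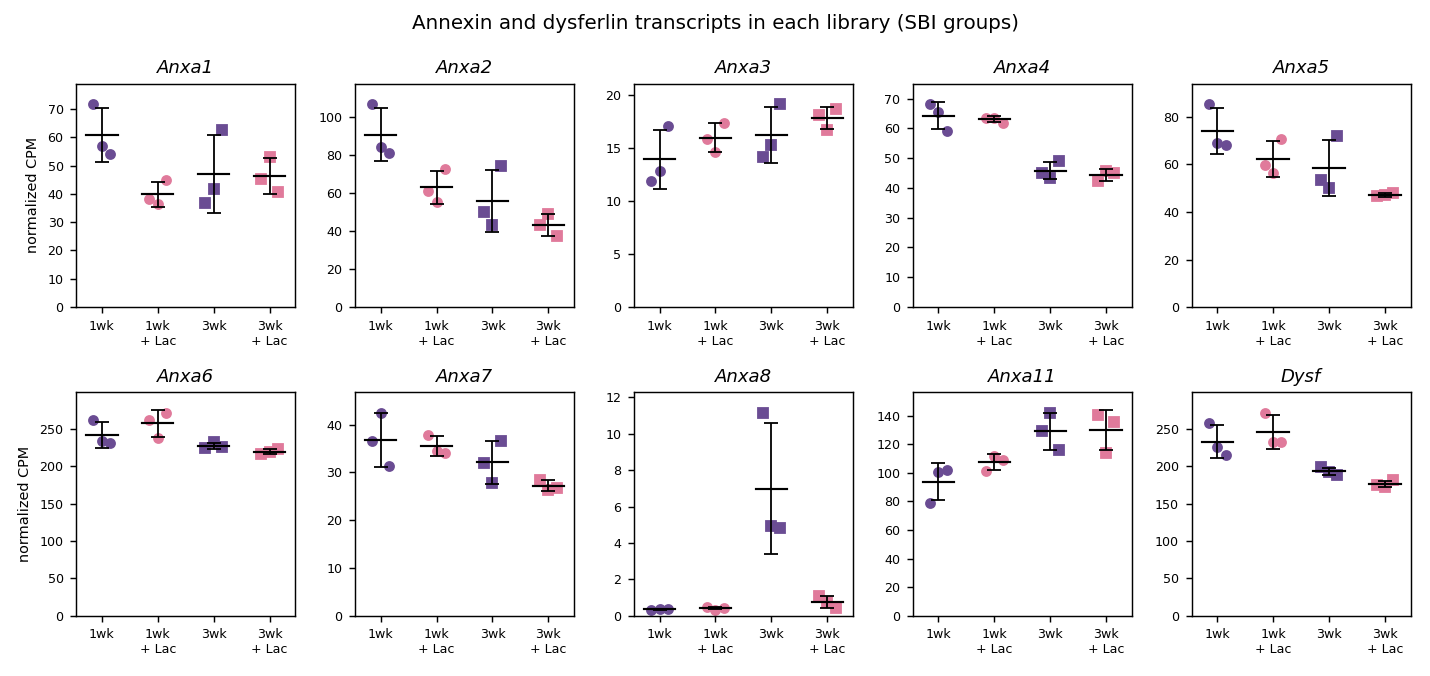
Normalized CPM of the 10 genes in each library (points), with the mean and SD of 3 libraries as horizontal line and bar, 1 panel per gene with its own axis from 0. Anxa8 spans a 19.8-fold range of group means, and the other 9 genes span ranges from 1.17-fold for Anxa6 to 2.11-fold for Anxa2.

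Anxa4, Anxa7 and Anxa11 encode annexins known from vesicle and granule traffic. Anxa4 (ENSRNOG00000018159) had 68.2, 65.4 and 59.3 normalized CPM in the 1wk SBI pools and 63.6, 63.6 and 61.9 in 1wk SBI + Lac. At 3 weeks it had 44.9, 43.4 and 49.0 in the 3wk SBI pools and 42.2, 45.8 and 45.2 in 3wk SBI + Lac. All 6 libraries of 3 weeks were below all 6 of 1 week, and lactating and non-lactating libraries overlapped at each time. Its log2 fold change for lactation was -0.03 at 1 week (95% confidence interval -0.22 to 0.16, edgeR adjusted p = 0.898) and -0.05 at 3 weeks (SE 0.09).

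Anxa7 (ENSRNOG00000007136) had 36.7, 42.5 and 31.3 normalized CPM in the 1wk SBI pools, 37.8, 34.5 and 34.1 in the 1wk SBI + Lac pools, 31.9, 27.7 and 36.6 in the 3wk SBI pools and 28.5, 26.3 and 26.8 in the 3wk SBI + Lac pools. Its groups overlapped in each lactation comparison, with log2 fold changes of -0.05 at 1 week (edgeR adjusted p = 0.845) and -0.24 at 3 weeks (SE 0.13). Anxa11 (ENSRNOG00000010984), whose protein also tethers RNA granules to lysosomes, stood higher at 3 weeks than at 1 week. It had 79.0, 100.5 and 102 normalized CPM in the 1wk SBI pools and 102, 112 and 109 in 1wk SBI + Lac. The 3-week values were 129, 142 and 116 without lactation and 140.2, 114 and 135 with lactation. All 6 libraries of 3 weeks were above all 6 of 1 week, and the lactation effect was 0.20 at 1 week (log2 fold change, edgeR adjusted p = 0.401) and 0.01 at 3 weeks (SE 0.12).

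Anxa3 (ENSRNOG00000002045), known from neutrophils and endothelium, had 11.9, 12.8 and 17.1 normalized CPM in the 1wk SBI pools, 15.8, 14.6 and 17.4 in the 1wk SBI + Lac pools, 14.2, 15.3 and 19.1 in the 3wk SBI pools and 18.1, 16.7 and 18.7 in the 3wk SBI + Lac pools, with overlap in every comparison. Anxa6 (ENSRNOG00000010668), the large annexin with a doubled core that caps membrane wounds in muscle fibers, had 261, 233 and 230.5 normalized CPM in the 1wk SBI pools and 262, 237 and 271 in 1wk SBI + Lac. At 3 weeks it had 224, 232 and 225 without lactation and 216, 218 and 223 with lactation, just short of overlap. The 1-week log2 fold changes were 0.20 for Anxa3 (edgeR adjusted p = 0.477) and 0.09 for Anxa6 (95% confidence interval -0.13 to 0.31, edgeR adjusted p = 0.672), and those at 3 weeks were 0.11 (SE 0.15) and -0.05 (SE 0.10).

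Dysf (ENSRNOG00000032788) had 258, 226 and 215 normalized CPM in the 1wk SBI pools and 272, 233 and 232 in 1wk SBI + Lac. The 3-week values were 199, 193 and 189 without lactation and 175, 173 and 182 with lactation. The libraries overlapped at 1 week and separated narrowly at 3 weeks, by less than the spread within 1wk SBI. The log2 fold change for lactation was 0.08 at 1 week (95% confidence interval -0.15 to 0.31, edgeR adjusted p = 0.741) and -0.13 at 3 weeks (SE 0.11). The 3-week estimate of Dysf was thus far smaller than that of Anxa8. With an SE nearly as large as the estimate, its direction is not established.

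At 1 week, a contrast that did not choose the genes, 0 of the 10 passed both cutoffs in edgeR, beside 0.253% of all genes tested. In DESeq2 0 of the 10 passed them too. It put 188 of 20062 genes past both on all 12 libraries and 332 of 19265 on the 6 of 1 week. Without adjustment, 2 of the 10 had an edgeR p under 0.05, Anxa1 and Anxa2, as had 18.9% of all genes tested. In both genes the lactating libraries all lay under the non-lactating ones, as in 14.1% of all genes tested. The summed fibroblast transcripts were lower with lactation at 1 week too, though with overlap, and their part in these values was not tested. By the adjusted p alone edgeR on all 12 libraries called 0 of the 10, beside 0.569% of all genes. Fitted on the 6 libraries of 1 week, edgeR called Anxa1 (adjusted p = 0.0457), beside 1.93% of all genes. DESeq2 called Anxa1 on all 12 libraries, beside 5.85% of all genes, and Anxa1 and Anxa2 on the 6 libraries of 1 week, beside 9.2%. The value for Anxa8 itself at 1 week was 0.22 (log2 fold change, 95% confidence interval -0.69 to 1.12, edgeR adjusted p = 0.818), so a difference of the size seen at 3 weeks lies outside the interval and a small one could not be detected at this depth.

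The difference between the lactation effects of 3 weeks and 1 week was -3.26 on the log2 scale for Anxa8 (SE 0.58). It was 0.58 for Anxa1 (SE 0.25), and it ran from -0.21 to 0.15 for the other 8 genes. No p is given for these estimates, since they hold the contrast that chose Anxa8.

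Between 1 and 3 weeks without lactation, 3 of the 9 genes other than Anxa8 passed the adjusted p alone, where 5.05% of all genes tested did. Anxa2 fell (log2 fold change -0.69, SE 0.18, edgeR adjusted p = 0.0472), as did Anxa4 (-0.49, SE 0.09, edgeR adjusted p = 0.0101). Anxa11 rose (0.46, SE 0.12, edgeR adjusted p = 0.0458). Past both cutoffs were 0 of the 9, beside 1.46% of all genes tested, although 5 of the 9 had an unadjusted p under 0.05, as had 21.2% of all genes. DESeq2 likewise put 0 of the 9 past both cutoffs. Over all genes it put 309 of 20062 past them on all 12 libraries and 286 of 19496 on the non-lactating ones. The other 6 genes missed the threshold, with log2 fold changes from -0.36 for Anxa1 to 0.24 for Anxa3. Fitted on the 6 non-lactating libraries alone, 0 of these 3 genes passed in edgeR (adjusted p from 0.0781 to 0.181). That fit called 0.886% of all genes. Anxa2 also missed with upper-quartile factors (edgeR adjusted p = 0.0512) or no low-count filter (edgeR adjusted p = 0.0596). By the adjusted p alone, DESeq2 called Anxa2, Anxa4 and Anxa11 on all 12 libraries, beside 9.86% of all genes. On the 6 non-lactating libraries it called Anxa2 and Anxa4 among these 3, beside 5.75%. Single libraries decided the calls as well. Anxa4 missed the threshold without 1wk SBI replicate 1 (edgeR adjusted p = 0.0632) or 3wk SBI replicate 2 (edgeR adjusted p = 0.0562). Anxa2 and Anxa11 missed it without any one of 1wk SBI replicates 1 and 2 and 3wk SBI replicates 1 and 2, with edgeR adjusted p-values up to 0.221 and 0.238. Without 3wk SBI replicate 3, Anxa1 (-0.63, adjusted p = 0.0138) and Anxa5 (-0.52, adjusted p = 0.0155) also passed in edgeR. Over all genes, the number past both cutoffs rose from 213 to 554 in that fit. It fell to between 61 and 130 without 1wk SBI replicates 1 or 2 or 3wk SBI replicates 1 or 2.

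Between 1 and 3 weeks with lactation, 2 of the 9 passed the adjusted p alone, both lower at 3 weeks, where 1.33% of all genes tested did so in that direction and 2.01% in either. These were Anxa4 (log2 fold change -0.51, SE 0.09, edgeR adjusted p = 0.0137) and Dysf (-0.48, SE 0.11, edgeR adjusted p = 0.0390). Past both cutoffs were 0 of the 9 in edgeR, beside 0.774% of all genes tested. In the same fit 7 of the 9 had an unadjusted p under 0.05, as had 18.1% of all genes. DESeq2 also put 0 of the 9 past both cutoffs. Over all genes it put 248 of 20062 past them on all 12 libraries and 253 of 18801 on the lactating ones. Every 3-week library was below every 1-week library for 6 of the 9 genes, beside 14.7% of all genes tested. Anxa2 was lower at 3 weeks too but missed the threshold on all 12 libraries (-0.54, SE 0.19, edgeR adjusted p = 0.142). Fitted on the 6 lactating libraries alone, Anxa2, Anxa5 and Anxa7 passed as well, in a fit that called 7.67% of all genes. Dysf missed the threshold whichever of the 6 libraries was left out (adjusted p from 0.0672 to 0.142, edgeR). Anxa4 missed it in 5 of these 6 fits and passed without 1wk SBI + Lac replicate 2 (adjusted p from 0.0428 to 0.0856, edgeR). Over all genes, the number past both cutoffs fell in these 6 fits too, from 113 to between 27 and 77. Dysf without lactation was lower at 3 weeks in every library (-0.27, edgeR adjusted p = 0.165), and the difference between its courses with and without lactation was -0.21 on the log2 scale (SE 0.15).

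**Figure D4:**
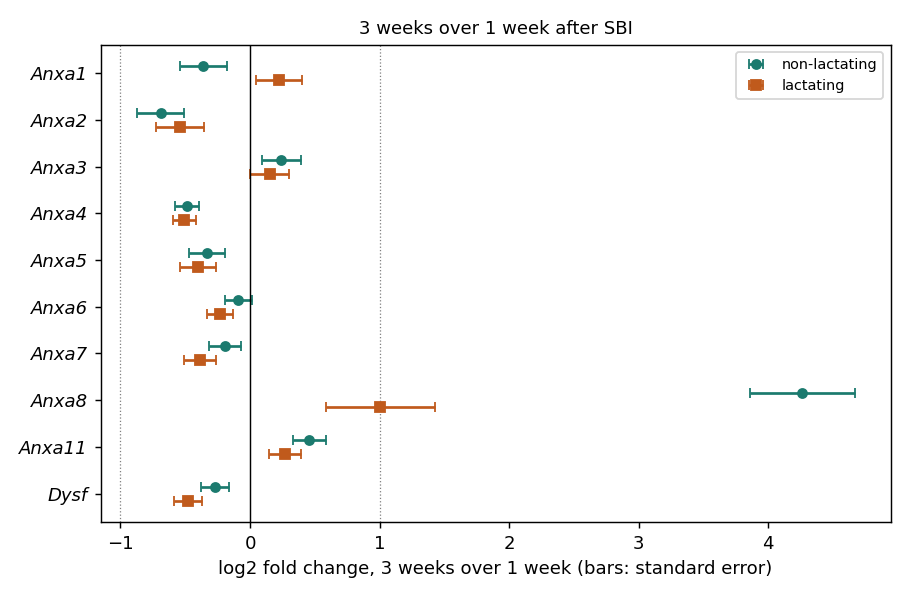
Log2 fold changes of the 10 genes, 3 weeks over 1 week, in non-lactating (circles) and lactating rats (squares), with standard errors as bars and dotted lines at the fold cutoff of 1. Anxa4 lies at -0.49 and -0.51, Anxa11 is above 0 in both, and Anxa8 stands at 4.26 without and 1.01 with lactation.

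Partner genes of membrane repair were examined as lists: other ferlins, other annexins, S100 proteins, dysferlin-binding proteins, caveola and EHD proteins, calpains, ESCRT components, lysosome exocytosis, the dystrophin complex, and annexin receptors and ligands. Of the 58 listed genes 49 were tested, and by the edgeR adjusted p 0 of the 49 were called in either lactation comparison, beside 0.569% of all genes at 1 week and 2.54% at 3 weeks. In each comparison 13 of the 49 had an unadjusted p under 0.05, as had 18.9% of all genes at 1 week and 21.1% at 3 weeks. DESeq2 put 0 past both cutoffs, beside 188 of 20062 genes at 1 week and 242 at 3 weeks on all 12 libraries. On only the libraries compared the all-gene numbers were 332 of 19265 and 175 of 18947. By the adjusted p alone, DESeq2 on all 12 libraries called 4 at 1 week (Ano5, Capn3, Myof and Sgcb) and 5 at 3 weeks (Ano5, Capns1, Dag1, Pacsin3 and Sgcb), beside 5.85% and 7.93% of all genes. On only the libraries compared it called 7 at 1 week, the same 4 with Ctsb, S100a11 and Trim72, and 2 at 3 weeks, Ano5 and Sgcb, beside 9.2% and 5.23%. The median log2 fold change was 0.06 at 1 week and 0.01 at 3 weeks, the latter against -0.02 over all genes.

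Myof (ENSRNOG00000016117) encodes myoferlin, the ferlin of myoblasts, and was lower with lactation without overlap at both times. It had 39.2, 35.1 and 28.4 normalized CPM in the 1wk SBI pools, 16.1, 20.6 and 26.9 in the 1wk SBI + Lac pools, 19.6, 21.1 and 30.3 in the 3wk SBI pools and 16.4, 17.5 and 14.1 in the 3wk SBI + Lac pools. Its log2 fold changes of -0.69 (SE 0.19, edgeR adjusted p = 0.0926) and -0.57 (SE 0.20, edgeR adjusted p = 0.128) missed the threshold, although DESeq2 called Myof at 1 week. S100a10 and S100a11, the S100 proteins that bind annexin A2 and annexin A1, had log2 fold changes of -0.35 (edgeR adjusted p = 0.280) and -0.58 (edgeR adjusted p = 0.135) at 1 week, each without overlap. At 3 weeks they were -0.19 (edgeR adjusted p = 0.567) and -0.33 (edgeR adjusted p = 0.372), with overlap.

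Partners of dysferlin in the fiber membrane lay on the other side of 0 at 1 week, 7 of 7 with a positive log2 fold change and 5 of 7 without overlap, beside 49.4% and 14.3% of all genes tested. Their median was 0.28. Skeletal muscle markers lay above 0 in the same comparison too, in 8 of 8 tested genes with a median of 0.49 and 2 of 8 without overlap, 0 of 8 passing the edgeR test, and their part in the values of the partners was not tested. Capn3, the muscle calpain, had 147, 118 and 158 normalized CPM in the 1wk SBI pools and 236, 219 and 194 in 1wk SBI + Lac, a log2 fold change of 0.62 (SE 0.13, edgeR adjusted p = 0.0506). Ano5, a membrane protein whose loss also causes limb-girdle dystrophy, had 138, 144 and 207 in the 1wk SBI pools and 273, 269 and 228 in 1wk SBI + Lac, a log2 fold change of 0.65 (SE 0.15, edgeR adjusted p = 0.0556). Both were again higher without overlap at 3 weeks, by 0.39 (edgeR adjusted p = 0.119) and 0.47 (edgeR adjusted p = 0.0943). Trim72, which encodes the repair protein MG53, was at 0.36 at 1 week (log2 fold change, edgeR adjusted p = 0.156) and at 0.03 at 3 weeks (edgeR adjusted p = 0.914). Cav3, the muscle caveolin, was at 0.09 (edgeR adjusted p = 0.751) and -0.01 (edgeR adjusted p = 0.978).

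**Figure D5:**
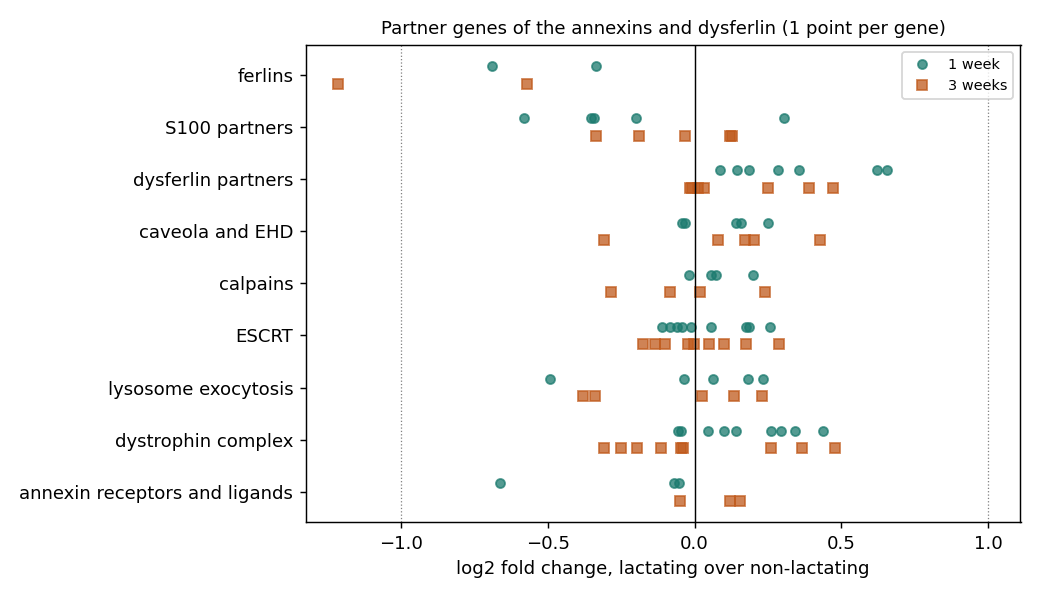
Log2 fold changes of the tested partner genes by list, 1 point per gene, lactating over non-lactating at 1 week (circles) and 3 weeks (squares), with dotted lines at the fold cutoff of 1. At 1 week the 7 dysferlin partners all lie above 0, between 0.09 and 0.65, and across both times 1 point is past the fold cutoff, Fer1l6 at -1.21 (edgeR adjusted p = 0.395).

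The genes most like Anxa8, by Pearson correlation of log2 CPM over the 12 libraries, were Tppp3 (0.94), Kif5a (0.94), Peli1 (0.93), Nr3c1 (0.92) and Zfp157 (0.92). By rank (Spearman) the correlations in the same order were 0.51, 0.86, 0.77, 0.89 and 0.76. The points share the group structure, and after the group means were taken away the Pearson correlations were 0.65, 0.70, 0.76, 0.26 and 0.80. The 5 genes were picked as the highest in these same libraries, a choice that can raise all these values. Within groups, Anxa8 in normalized CPM varied most in 3wk SBI, where replicate 1 had 11.2 beside 4.95 and 4.84. Kif5a, a neuronal kinesin, had group means of 5.87 and 6.51 normalized CPM at 1 week without and with lactation and of 21.6 and 10.7 at 3 weeks. Nr3c1, the glucocorticoid receptor, had 120.0 and 124.9 at 1 week and 150.4 and 129.6 at 3 weeks. Among the other 9 genes the correlation with Anxa8 ran from -0.68 for Anxa4 to 0.57 for Anxa11.

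Marker transcripts of other cells moved with several of these values, and their part in the results was not tested. Fibroblast transcripts, 9 of 9 listed genes tested, were lower with lactation in 9 of 9 at 1 week and at 3 weeks by the sign of the log2 fold change, 2 and 6 of them without overlap, and 0 of 9 passed the edgeR test (1 and 6 had an unadjusted p under 0.05). Over all genes, 50.5% and 52.3% were below 0, and 14.1% and 10.4% were lower without overlap. An unadjusted p under 0.05 was found for 18.9% and 21.1% of them, and an adjusted one for 0.569% and 2.54%. The summed fibroblast level ran from 7489 to 10929 normalized CPM in 1wk SBI, from 4287 to 8147 in 1wk SBI + Lac, from 3523 to 8179.8 in the 3wk SBI pools and from 2110.1 to 3038 in 3wk SBI + Lac. Replicate 3 of 3wk SBI held the highest sum of that group, and also its highest Anxa1, Anxa2, Anxa3, Anxa4, Anxa5 and Anxa7. It held the lowest Anxa11 and Dysf of that group. Its Anxa8 of 4.84 was also the lowest, but with a counting interval that overlapped that of replicate 2 at 4.95. Macrophage transcripts, 10 of 10 tested, summed to 544 to 578 in 1wk SBI, 344 to 481 in 1wk SBI + Lac, 395 to 888 in the 3wk SBI pools and 363 to 605 in 3wk SBI + Lac, the 888 in the same replicate 3. Of the 10, 1 passed the adjusted p in each comparison of lactation, beside 0.569% of all genes at 1 week and 2.54% at 3 weeks. This was Cd68, lower with lactation at 1 week (log2 fold change -0.96, edgeR adjusted p = 0.0417) and at 3 weeks (-1.08, edgeR adjusted p = 0.0150).

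Skeletal muscle markers defined every library, with 8 of 9 listed genes found and summed levels of 86789.9 to 138099 normalized CPM in 1wk SBI, 134734 to 160822 in 1wk SBI + Lac, 127741 to 173516 in the 3wk SBI pools and 186809 to 208676 in 3wk SBI + Lac. Markers of regenerating fibers summed to 1376 to 3299.9, 724 to 1169, 221 to 729 and 171 to 207 in the same order. Epithelial markers, of which 6 of 10 were found and 4 tested, summed to 1.62 to 3.10, 1.31 to 2.58, 2.29 to 4.29 and 1.54 to 2.15, with Krt5 at 0 in all lactating libraries and at no more than 0.0481 in any other. The highest epithelial sum was in 3wk SBI replicate 1, the library with the highest Anxa8. Replicates 2 and 3 of 3wk SBI, at 2.35 and 2.29, lay below 1wk SBI replicate 2 at 3.10, where Anxa8 was far lower. A link between these sums and Anxa8 was not tested. Milk transcripts summed to 0 in 1wk SBI and 0.689 to 2.89 in 1wk SBI + Lac. At 3 weeks they summed to at most 0.0120 in the 3wk SBI pools and to 0.330 to 39.4 in 3wk SBI + Lac.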

How the data were processed

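The authors deposited 1 table of gene counts, not normalized, for 30206 genes by Ensembl identifier. The 1-week columns hold whole counts. The 3-week columns were deposited with decimals in 26.6% to 44.0% of values per library and were taken to be expected counts, rounded here although whole counts had been assumed. Salmon is named in the submitters' processing notes, and the genome build and annotation are not given in the sources used here. In 30 genes the 1-week libraries were all at 0 with at least 100 counts over the 3-week libraries, and 0 genes showed the opposite. Libraries of 1 group differed beyond counting noise (chi-square of 22.1 to 100.1 per degree of freedom). The study calls the pools technical replicates, and they were treated as separate samples because the labels name different rats.

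edgeR 4.0.16 in R 4.3.3 was run with TMM scaling, filterByExpr and a robust quasi-likelihood fit over 12 libraries and 4 groups, with Benjamini-Hochberg adjustment over 14599 genes. The study's methods used DESeq2 with these cutoffs, and DESeq2 1.42.0 was an alternative, beside other scalings, filters, fits and left-out libraries. Standard errors (SE) were the fold change on the log2 scale over the root of F. Correlations used log2 CPM with a prior count of 2. On counts simulated for the 1-week contrast with 14377 genes, 90 of 100 genes changed by 1.5 and 94 of 100 changed by 2 on the log2 scale were called. Of these 0 had the wrong sign, and each setting gave 2 false calls. These shares need not hold for the real libraries. At 1 week 0 of 3 tested milk genes (median log2 fold change 8.05) and 0 of 4 erythroid genes (1.11 to 1.71) were called. The genes and gene lists were chosen with earlier results of these data known. Named were all 10 genes, 7 close partners, up to 3 genes past both cutoffs per list, direction and comparison, and the 5 genes most correlated with Anxa8. Fer1l6, Col2a1 and the genes DESeq2 called were named after their values were seen. No p is given for the 10 genes in the 3-week lactation contrast, which chose Anxa8, nor for Anxa8 over time. Promoter sequences are from RefSeq on GRCr8, and proteins were not analysed here.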

Additional observations from a re-analysis of the deposited data

How the results depend on the processing

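Of 556 alternative log2 fold changes of the 10 genes, 544 kept their direction and their side of both cutoffs. The number of the 10 genes past both cutoffs stayed at 0 at 1 week in all 15 alternatives. At 3 weeks it stayed at 1, Anxa8, in 14 of 15 and was 0 when at least 10 counts were required in every library, a filter that removes Anxa8 with its 4 counts in 3wk SBI + Lac replicate 3. The same filter gave 0 for 3 weeks against 1 week without lactation, where the number was otherwise 1. With the adjusted p alone the number over time was 4 without and 2 with lactation, Anxa8 among the 4. The 3-week libraries chose Anxa8, so every number at 3 weeks or over time that counts it is a description. Signs changed in 12 values. For lactation at 1 week, Anxa4 ran from -0.0818 to 0.0168, Anxa7 from -0.16 to 0.0626 and Dysf from -0.00713 to 0.16 across the left-out libraries. At 3 weeks Anxa1 ran from -0.17 to 0.25, Anxa4 from -0.0790 to 0.00844 and Anxa11 from -0.0657 to 0.0953, and Anxa11 was also below 0 with upper-quartile factors, with at least 10 counts in every library and with only the libraries compared (-0.0105, -0.0120 and -0.00521). The highest values of Anxa1 and Anxa4 at 3 weeks came without 3wk SBI replicate 3. The cause was not tested.

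Lactating and non-lactating samples of the same number and time showed no positive correlation of their deviations, with values from -0.23 to -0.05. With 3 libraries per group this cannot exclude a shared batch. With a replicate block the numbers past both cutoffs were 0 at 1 week and 1 at 3 weeks (Anxa8 at -3.04). By the adjusted p alone over time they were 2 genes without lactation (Anxa4 and Anxa8) and 1 with lactation (Anxa4). The numbers that count Anxa8 are again a description. Over all genes, the number past both cutoffs was 37 at 1 week and 108 at 3 weeks, 8 and 64 with the replicate block, and 332 and 175 in DESeq2 on the libraries compared. With the left-out libraries it ran from 2 to 235 at 1 week and from 22 to 157 at 3 weeks.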

Other observations

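The annexins outside the 10 genes, Anxa9, Anxa10 and Anxa13, had too few counts in these muscles to be tested, as had the formyl peptide receptors Fpr1, Fpr2 and Fpr3, on which annexin A1 acts, plasminogen (Plg) and the ferlins Fer1l5 and Otof. Of the plasminogen activators and their receptor, which annexin A2 works beside, the log2 fold changes for lactation at 1 week were -0.07 for Plat (edgeR adjusted p = 0.860), -0.05 for Plau (edgeR adjusted p = 0.865) and -0.66 for Plaur (SE 0.37, edgeR adjusted p = 0.339). At 3 weeks they were 0.12, -0.05 and 0.16 (adjusted p = 0.734, 0.865 and 0.855, edgeR).

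The dystrophin complex, which ties the fiber's cytoskeleton to its basement membrane, was tested in 9 of 9 genes and 0 of 9 were called in edgeR in either lactation comparison, with 4 of 9 at an unadjusted p under 0.05 in each, beside 18.9% of all genes at 1 week and 21.1% at 3 weeks. DESeq2 called Sgcb at both times and, at 3 weeks on all 12 libraries, Dag1. The log2 fold changes ran from -0.06 to 0.44 at 1 week, with 7 of 9 above 0 beside 49.4% of all genes tested, and from -0.31 to 0.48 at 3 weeks, with 3 of 9 above 0 beside 47.7%. Dmd, the dystrophin gene, was at 0.10 (edgeR adjusted p = 0.681) and -0.04 (edgeR adjusted p = 0.883), and Utrn, its relative utrophin, at -0.06 (edgeR adjusted p = 0.837) and -0.11 (edgeR adjusted p = 0.634). ESCRT components, which pinch off wounded membrane, were tested in 9 of 9 genes and ran from -0.11 to 0.26 at 1 week and from -0.18 to 0.29 at 3 weeks. As in the dystrophin complex, 0 of 9 were called in edgeR, beside 0.569% of all genes at 1 week and 2.54% at 3 weeks. At each time 1 of 9 ESCRT genes had an unadjusted p under 0.05, beside the same 18.9% and 21.1% of all genes.

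Between 1 and 3 weeks 0 of the 49 tested partner genes were called in edgeR on all 12 libraries by the adjusted p, beside 5.05% of all genes without and 2.01% with lactation. In each comparison 8 of the 49 had an unadjusted p under 0.05, beside 21.2% and 18.1% of all genes. In DESeq2 on all 12 libraries the adjusted p alone called 2 without and 4 with lactation, beside 9.86% and 6.02%. There 0 of the 49 were past both cutoffs, beside 309 and 248 of 20062 genes. On only the libraries compared, edgeR and DESeq2 each called 0 without lactation, beside 0.886% and 5.75% of all genes. With lactation each called 5, beside 7.67% and 9.9%. Among the marker lists, genes of regenerating fibers were past both cutoffs over time. Mymk and Mymx, which drive myoblast fusion, fell over time, with log2 fold changes of -3.86 and -3.98 without lactation (edgeR adjusted p = 0.00642 and 0.0149) and of -3.25 and -3.93 with it (edgeR adjusted p = 0.0268 and 0.0360). Myh8, the perinatal myosin, fell without lactation (-3.00, edgeR adjusted p = 0.0287). Of the 6 tested tendon and cartilage genes, 2 passed without lactation, beside 1.46% of all genes tested. These were Acan and Scx, both lower (-5.12 and -1.64, edgeR adjusted p = 0.0150 and 0.00536). The list did not move one way, with 3 of 6 above 0 beside 49% of all genes, a median of -0.05 and Col2a1 at 2.77 (edgeR adjusted p = 0.118). Of the 9 fibroblast genes 7 were below 0 and 1 passed, Lum (-1.01, edgeR adjusted p = 0.0453), beside 51% and 1.46% of all genes tested. Scx was higher with lactation at 3 weeks (1.06, edgeR adjusted p = 0.0417). Of the erythroid genes, Hbb fell without and with lactation (-1.16 and -1.85, edgeR adjusted p = 0.0288 and 0.00654), and Hba-a1 and Alas2 fell with lactation (-1.88 and -2.38, edgeR adjusted p = 0.0105 and 0.0313).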
